A study of Homo sapiens with 26 samples.

Results

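The genes described here are 7 chemokines, 1 further cytokine and 2 feedback inhibitors that belong to the inflammatory programme driven by the transcription factor NF-kB. They were given by name, chosen with earlier results of these data known, and looked up by exact gene symbol. All 10 (CXCL1, CXCL2, CXCL3, CXCL10, CXCL11, CCL5, CCL20, IL32, NFKBIA and TNFAIP3) were found among the 26281 gene symbols of the authors' assembled annotation. All groups were HCT116 cells, a line from a human colorectal carcinoma. RNA was sequenced from 1 library of an HCT116 line in which the gene of the DNA methyltransferase DNMT3B is knocked out, set against 1 library of wild-type HCT116 cells. It was also sequenced from 2 libraries of lines with lentivirally added FLAG-tagged ZBTB24, set against 2 with the FLAG tag alone, and from 3 libraries with a short hairpin against ZBTB24 (shZBTB24), set against 3 with a hairpin that has no target (shNT). FLAG ChIP-seq came from 3 FLAG-ZBTB24, 2 FLAG-DNMT3B and 2 tag-only lines, each with an input library. All lines that carry a tag or hairpin were selected with puromycin, and each tagged line was grown from a single cell, so that clone and transgene cannot be told apart. The knockout is 1 line with 1 library.

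NF-kB is held in the cytoplasm by inhibitor proteins until a receptor of the tumour necrosis factor, interleukin-1 or Toll-like families starts a kinase cascade that destroys the inhibitor. The freed factor binds kB sites in promoters and switches on chemokines, which recruit leukocytes, together with its own inhibitors, which end the response. In gut epithelium this programme is part of the reaction to bacteria and injury. ZBTB24 is a zinc finger protein, and mutations in ZBTB24 and in DNMT3B cause ICF syndrome, an immunodeficiency with altered DNA methylation.

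The promoters show what these genes share in sequence. RefSeq promoters (GRCh38.p14) were at hand for 9 of the 10 genes, all but CCL5, with 2 starts for IL32. Each ran from 250 bases before the start base, which is counted as 0, to 50 bases from it. A kB site was searched on both strands as GGGA, any 4 bases and CC. Of the 9 genes, 9 held at least 1 match. Counted by promoter, 9 of 10 held one, beside 25.6% of all 35116 promoters of that length. The genes were picked as NF-kB target genes, so a share above that of all promoters is no separate result. The 200 bases before the start are shown for the 3 close relatives CXCL1 (chr4:73869193-73869392, plus strand), CXCL2 (chr4:74099196-74099395, minus strand) and CXCL3 (chr4:74038690-74038889, minus strand). They are also shown for CXCL10 (chr4:76023498-76023697, minus strand), for NFKBIA (chr14:35404750-35404949, minus strand) and for TNFAIP3 (chr6:137867059-137867258, plus strand), with the bases of kB matches in capitals.
CXCL1: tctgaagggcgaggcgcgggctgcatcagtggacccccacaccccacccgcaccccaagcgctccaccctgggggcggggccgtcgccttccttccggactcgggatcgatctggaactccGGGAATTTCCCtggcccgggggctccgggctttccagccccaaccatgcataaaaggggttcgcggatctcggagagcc
CXCL2: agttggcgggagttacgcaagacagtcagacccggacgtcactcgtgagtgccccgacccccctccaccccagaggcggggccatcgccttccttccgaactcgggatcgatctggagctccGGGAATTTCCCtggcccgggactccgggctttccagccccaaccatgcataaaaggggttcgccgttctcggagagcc
CXCL3: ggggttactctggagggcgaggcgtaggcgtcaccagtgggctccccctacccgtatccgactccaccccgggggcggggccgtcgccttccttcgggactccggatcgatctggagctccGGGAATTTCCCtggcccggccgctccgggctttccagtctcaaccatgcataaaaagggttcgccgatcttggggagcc
CXCL10: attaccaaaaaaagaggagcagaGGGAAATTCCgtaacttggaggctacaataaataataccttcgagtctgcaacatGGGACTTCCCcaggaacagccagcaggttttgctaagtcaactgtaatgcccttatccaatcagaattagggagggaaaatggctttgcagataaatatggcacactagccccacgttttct
NFKBIA: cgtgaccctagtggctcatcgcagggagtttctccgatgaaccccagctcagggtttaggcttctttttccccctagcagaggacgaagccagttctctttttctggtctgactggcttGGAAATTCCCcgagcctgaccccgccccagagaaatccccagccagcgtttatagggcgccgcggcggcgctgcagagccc
TNFAIP3: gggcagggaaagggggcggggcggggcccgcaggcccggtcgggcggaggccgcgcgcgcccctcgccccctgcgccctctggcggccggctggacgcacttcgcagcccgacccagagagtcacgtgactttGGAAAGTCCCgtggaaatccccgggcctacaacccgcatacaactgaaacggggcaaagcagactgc

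In CXCL1, CXCL2 and CXCL3 the match lay at the same place, from -79 to -70 in CXCL1 and CXCL3 and from -78 to -69 in CXCL2. Since the site reads nearly alike on both strands, it gave 2 overlapping matches in each. CXCL3 held a further match after its start, from 17 to 26. The longest stretch that all 3 promoters share is 23 bases and holds that site.
CXCL1, CXCL2 and CXCL3, shared: ctccGGGAATTTCCCtggcccgg

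Over the whole promoter, the CXCL1 promoter was 82.5% identical to that of CXCL3 and 72.1% identical to that of CXCL2. CXCL10 and CXCL11 were 48.1% identical to each other. The match of CXCL11 read GGGAAATTCC and lay from -76 to -67. In CCL20, GGGAAAACCC lay from -80 to -71, with 2 further matches on the opposite strand. IL32 held GGGAGTTTCC from -99 to -90 of its first start and no match at its second. NFKBIA held 1 match from -81 to -72 and TNFAIP3 held 1 from -67 to -58, both on the strand opposite to the gene. On that strand they read GGGAATTTCC in NFKBIA and GGGACTTTCC in TNFAIP3, and the capitals above show their complement in reverse. An interferon-stimulated response element, searched on both strands as GAAA, any 2 bases and GAAA, was found in CXCL10 alone among the 10 promoters and in 3.57% of all. The TATA box, as TATAAA on both strands, was found in CCL20, CXCL11 and NFKBIA, and in 11.5% of all promoters. In NFKBIA it lay on the strand opposite to the gene, from -33 to -28. Only this exact string was counted, so a promoter without it may still hold a similar one. A match is a description of letters and not evidence of a bound factor.

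CpG, the pair of bases that DNA methyltransferases act on, divided the promoters. TNFAIP3 held 35, CXCL3 held 24, and CXCL1, CXCL2 and NFKBIA held 22 each. IL32 held 7 at either start, CCL20 and CXCL10 held 3 each, and CXCL11 held 0. The median of all promoters was 14. The 3 neutrophil chemokines and the 2 inhibitors thus lay above the median, and the interferon-inducible pair, CCL20 and IL32 lay below it.

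**Figure D1:**
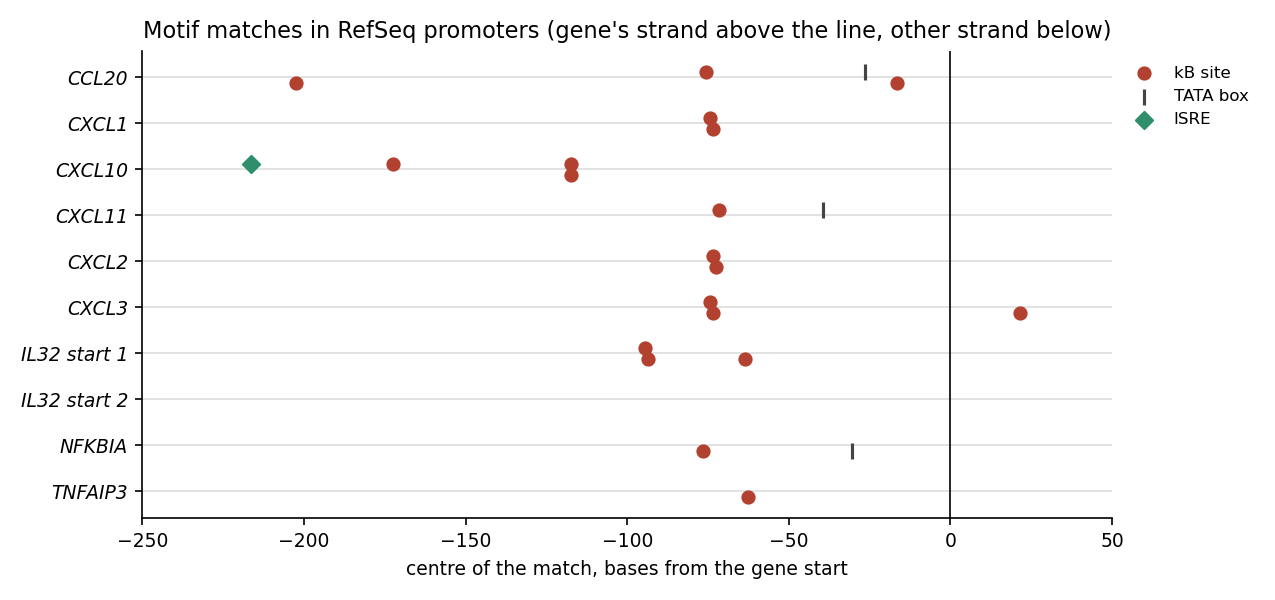
Matches of the kB site, the TATA box and the interferon-stimulated response element (ISRE) in the RefSeq promoters of 9 genes, 1 row per start, with the centre of each match in bases from the gene start on the x axis. In each row but that of the second IL32 start there is at least 1 kB match, and those of CXCL1, CXCL2 and CXCL3 line up.

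The expression values are those of the authors' deposited tables, which give 1 FPKM value per group (fragments per kilobase of transcript, scaled to sequencing depth), the log2 of the ratio between both groups (called log2 ratio or log2 fold change here), a p and a q for each locus. FPKM is per length, so levels can be set side by side between genes, but it is not known whether the tables were scaled together. Libraries of a group were combined before deposit, so no value has a spread between libraries, and the depth is unknown. The tables list only loci past a minimum change. All listed loci had an absolute log2 fold change of at least 0.50 with shZBTB24 and with FLAG-ZBTB24, and at least 1 in the knockout. The shZBTB24 table further stops at a p of 0.0549. A gene that is not listed may therefore be unchanged, filtered out or not tested. A locus was taken as past the threshold where q was under 0.05. Of the targeted genes, the locus of MICAL1 and ZBTB24 was at 155 FPKM with FLAG-ZBTB24 and 17.8 FPKM with the tag alone (q = 0.0192, authors' deposited table), ZBTB24 was not listed in the shZBTB24 table, and DNMT3B had no row labelled DNMT3BKO, so neither loss is checked by these values.

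In the DNMT3B knockout library, 8 of the 10 genes were listed, all with higher values than in wild type and all without passing the threshold. Of all annotated symbols, 9.09% were listed as higher in that table. Because the genes were chosen with earlier results of these data known, the difference between these shares was not tested. Rows under the knockout's label hold higher values only, so the direction is set by the label and is no result. The table holds 1112 further rows under another label, DNMT3BKOshZB, all of them lower than in wild type. No sample used here has that name, so their values were not used. Whether those rows hold the falls of the knockout cannot be told. None of the 10 genes stood among them.

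The neutrophil-attracting chemokines CXCL1, CXCL2 and CXCL3, which act through the receptor CXCR2, had 7.18-fold to 13.5-fold higher values. CXCL1 was at 35.2 FPKM in the knockout and 3.37 FPKM in wild type in the authors' deposited table (log2 ratio 3.38, q = 0.514). CXCL2 was at 19.4 FPKM in the knockout and 2.71 FPKM in wild type in the same deposited table of the authors (log2 ratio 2.84, q = 0.794). For CXCL3 the authors' deposited table gave 7.08 FPKM in the knockout and 0.523 FPKM in wild type (log2 ratio 3.76, q = 0.495). These 3 genes are close copies of each other, and the sources used here do not say how reads were split between them.

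CCL5, a chemokine that attracts T cells, had the largest deposited ratio of the 8 listed genes. The authors' deposited table gave it 6.62 FPKM in the knockout and 0.0539 FPKM in wild type (log2 ratio 6.94, q = 0.691). That ratio rests on a wild-type value near 0. With 1 FPKM added to both values its log2 ratio was 2.85, below the 3.05 of CXCL1. CCL20, the ligand of CCR6, was at 1.11 FPKM in the knockout and 0.511 FPKM in wild type in the authors' deposited table (log2 ratio 1.12, q = 0.984), the smallest ratio of the 8. IL32, a cytokine with no known counterpart in mice, was at 30.1 FPKM in the knockout and 5.60 FPKM in wild type in the authors' deposited table (log2 ratio 2.43, q = 0.552).

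The feedback inhibitors had the lowest q of the set. NFKBIA encodes the inhibitor that retains NF-kB in the cytoplasm, and had 162 FPKM in the knockout and 32.0 FPKM in wild type in the authors' deposited table (log2 ratio 2.34, p = 0.00335, q = 0.188). TNFAIP3 encodes A20, an enzyme that edits ubiquitin chains and shuts off the kinase cascade. It was at 9.97 FPKM in the knockout and 1.06 FPKM in wild type in the authors' deposited table (log2 ratio 3.23, p = 0.0146, q = 0.267). These were the 2 of the 8 with an unadjusted p under 0.05 in the authors' deposited table, where 9.36% of all 2243 listed loci had one. The share with a q under 0.05 was 0.312% of the listed loci and 0 of the 8. With 1 library per group, p and q compare those libraries and not the conditions, and the difference has no replicate check.

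By size of change, 7 of the 8 genes stood in the upper part of the list. The median log2 fold change of the 8 was 3.04, beside 2.12 over all 2243 loci of the authors' deposited table. CCL5 ranked 125 of 2243, CXCL3 560, CXCL1 644, TNFAIP3 683, CXCL2 798, IL32 959, NFKBIA 993 and CCL20 2019. CXCL10 and CXCL11, interferon-inducible ligands of CXCR3, were not listed in any of the 3 tables. In the annotation ART3 overlaps both of them on the other strand.

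**Figure D2:**
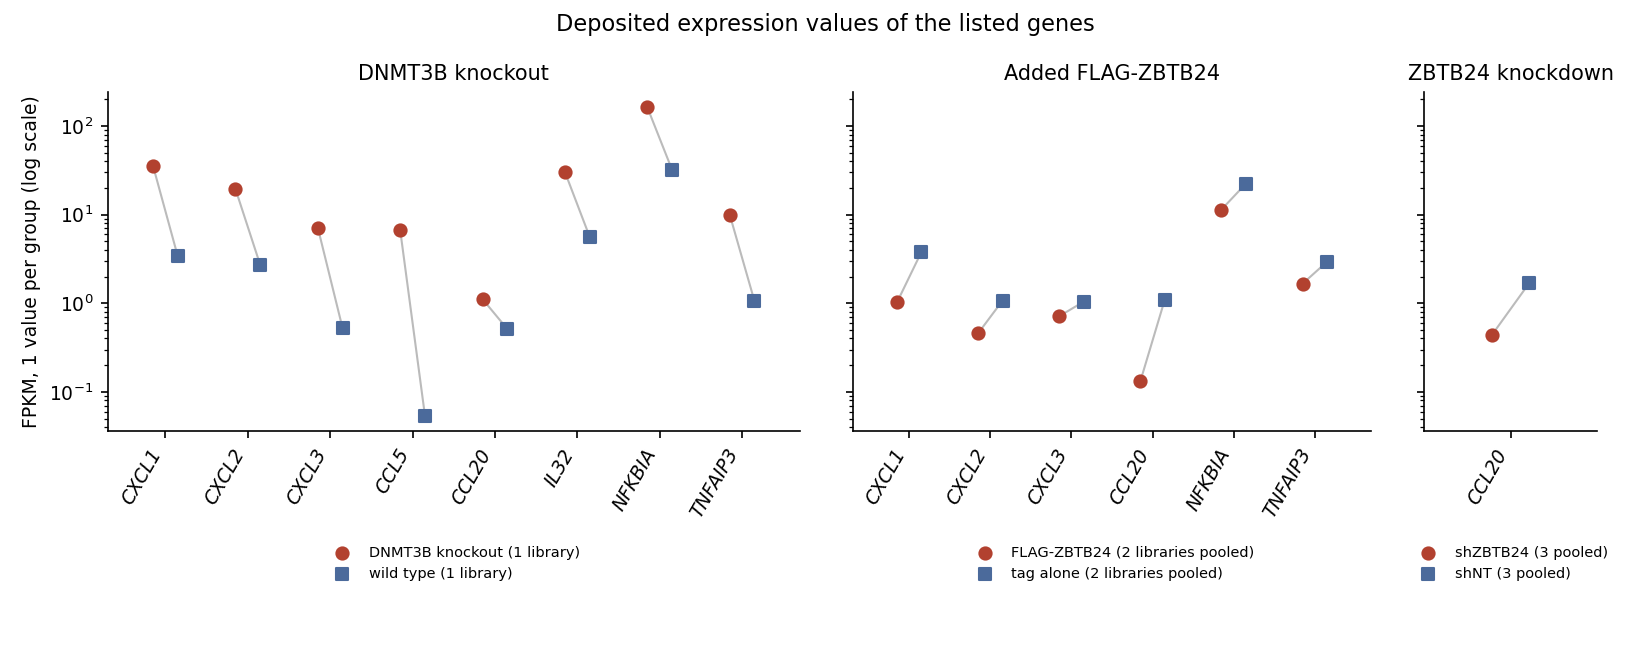
FPKM (log scale, y axis) of each listed gene in the authors' deposited tables, with 1 pooled value per group and no error bars; in each column the red point is the knockout, FLAG-ZBTB24 or shZBTB24 value and the blue square its control. All 8 genes of the knockout panel lie above wild type, and all 6 of the FLAG-ZBTB24 panel and CCL20 with shZBTB24 lie below their control.

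With added FLAG-ZBTB24, 6 of the 10 genes were listed, all 6 with lower values than with the tag alone and 0 past the threshold. Of all annotated symbols, 3.81% were listed as lower and 3.41% as higher, and 52.7% of the 1754 listed loci were lower. The same 6 genes were among the 8 listed in the knockout table. Their median log2 fold change was -1.09, beside -0.71 over all lower loci of the authors' deposited table.

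CXCL1 had the lowest q of the 6. It was at 1.03 FPKM with FLAG-ZBTB24 and 3.79 FPKM with the tag alone in the authors' deposited table (log2 ratio -1.88, p = 0.0199, q = 0.429). For CXCL2 the authors' deposited table gave 0.459 FPKM with FLAG-ZBTB24 and 1.07 FPKM with the tag alone (log2 ratio -1.23, q = 0.967). CXCL3 was at 0.714 FPKM with FLAG-ZBTB24 and 1.04 FPKM with the tag alone in the authors' deposited table (log2 ratio -0.54, q = 0.997). By deposited ratio CXCL3 was the smallest of these 3 here and the largest in the knockout, where its wild-type value was 0.523 FPKM. With 1 FPKM added to all values CXCL3 was the smallest in both, at log2 ratios of -0.25 with FLAG-ZBTB24 and 2.41 in the knockout.

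CCL20 had the largest deposited ratio with FLAG-ZBTB24, at 0.132 FPKM against 1.09 FPKM with the tag alone in the authors' deposited table (log2 ratio -3.05, q = 0.967). It ranked 14 of 924 lower loci by size, on values near 1 FPKM and below. With 1 FPKM added its log2 ratio was -0.89, which was smaller in size than the -1.24 of CXCL1 and close to the -0.90 of NFKBIA. NFKBIA was at 11.4 FPKM with FLAG-ZBTB24 and 22.3 FPKM with the tag alone in the authors' deposited table (log2 ratio -0.96, p = 0.0345, q = 0.496). TNFAIP3 was at 1.66 FPKM with FLAG-ZBTB24 and 2.93 FPKM with the tag alone in the authors' deposited table (log2 ratio -0.82, q = 0.84). In the annotation, LOC100130476 overlaps TNFAIP3 on the other strand, and the sources used here do not say whether reads were counted by strand. CXCL1 and NFKBIA were the 2 of the 6 with an unadjusted p under 0.05, where 9.92% of the listed loci had one and 0.570% had a q under 0.05 in the authors' deposited table.

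After ZBTB24 knockdown, CCL20 was the one gene of the 10 listed. It was at 0.443 FPKM with shZBTB24 and 1.69 FPKM with shNT in the authors' deposited table (log2 ratio -1.93, p = 0.0169, q = 0.18). It did not pass the threshold, and ranked 21 of 884 lower loci by size of change. Of the 1965 loci listed with it, 22.0% had a q under 0.05 and 97.0% a p under 0.05. Of all annotated symbols, 3.61% were listed as lower and 4.44% as higher. CCL20 thus had lower values both with the hairpin and with added FLAG-ZBTB24, and a higher value in the knockout, none of them past the threshold.

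CCL5 and IL32 were listed in the knockout table alone, so their levels can be set only against wild type. All rows under the knockout's label are higher than wild type, so that order is no result. CXCL1, CXCL2, CXCL3, NFKBIA and TNFAIP3 were also higher in the knockout than in both groups of the FLAG-ZBTB24 table. CCL20 was highest with shNT at 1.69 FPKM, then 1.11 in the knockout, 1.09 with the tag alone, 0.511 in wild type, 0.443 with shZBTB24 and 0.132 with FLAG-ZBTB24 in the authors' deposited tables. For CXCL1 the order was 35.2 in the knockout, 3.79 with the tag alone, 3.37 in wild type and 1.03 FPKM with FLAG-ZBTB24 in the authors' deposited tables. Control values also differed between tables. TNFAIP3 was at 2.93 FPKM with the tag alone and 1.06 FPKM in wild type, and CXCL2 at 1.07 FPKM with the tag alone and 2.71 FPKM in wild type in the authors' deposited tables. Without a spread between libraries, neighbours in these orders cannot be told apart.

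**Figure D3:**
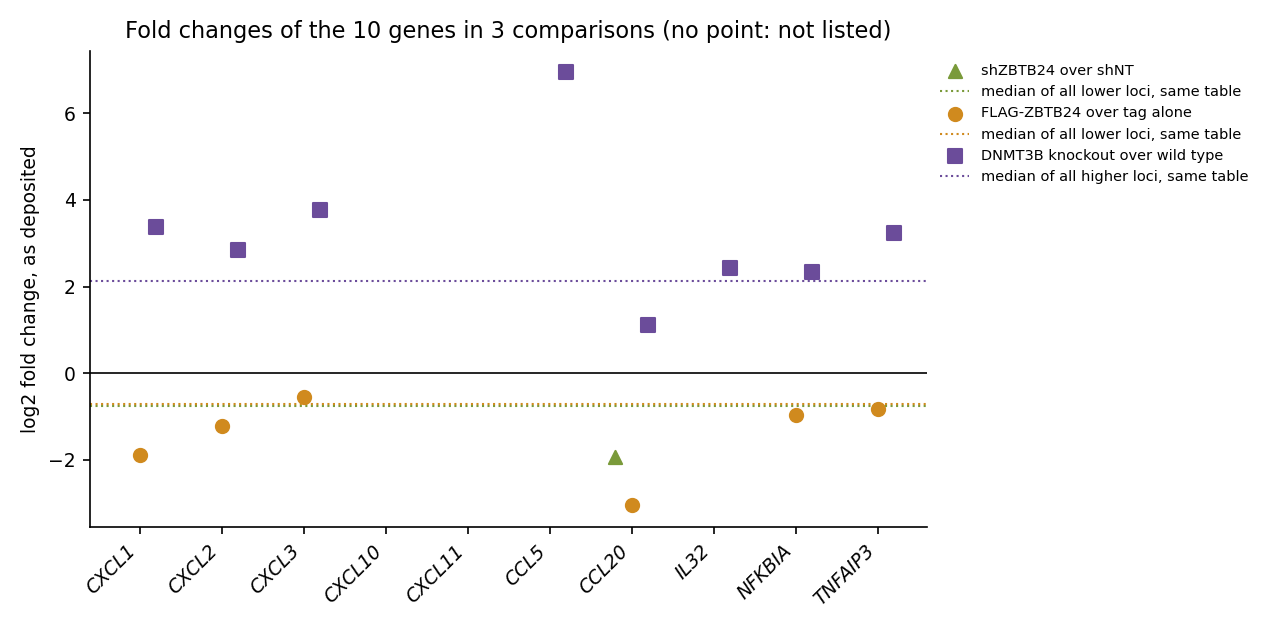
Log2 fold changes of the 10 genes in the authors' deposited tables (y axis), 1 colour per comparison, with dotted lines at the median of all higher (knockout) or all lower (shZBTB24, FLAG-ZBTB24) loci of the same table. Knockout points run from 1.12 to 6.94, FLAG-ZBTB24 points from -3.05 to -0.54, and CXCL10 and CXCL11 have none.

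Neither factor had a peak at the promoter of any of the 10 genes in the authors' merged peak lists. A promoter reached 1000 bp either side of a transcript start and had to hold the midpoint of the peak. Of all annotated symbols, 4.18% had a ZBTB24 and 2.68% a DNMT3B promoter peak. Gene bodies held 0 ZBTB24 peaks and 1 DNMT3B peak among the 10 genes, against 5.08% and 22.7% of all symbols. A body peak had to lie more than 1000 bp from any start, which leaves little room in short genes. CXCL1 spans 1911 bp, and TNFAIP3, the longest of the 10, spans 16127 bp. The shares of all symbols were not matched for gene length, so the body counts cannot be read as a lack of peaks. Peak scores are the authors', of a kind that the sources used here do not name.

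The DNMT3B peak lay in TNFAIP3 (hg19 chr6:138188325-138204451, plus strand, 9 exons in its reference transcripts). It ran from chr6:138195823-138200003, 4181 bp wide, with its midpoint 9588 bp from the reference start. Its score of 3.14 was above 11.6% of the 15909 DNMT3B peaks. TNFAIP3 was 1 of the 8 genes with higher values in the knockout, and the other 7 had no DNMT3B peak in the body.

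At the median, ZBTB24 peaks lay closer to these 10 genes than to the typical gene, though outside promoters. The median distance from a transcript start to the nearest ZBTB24 peak was 38.7 kb over the 10 genes and 132 kb over the 25085 symbols on chromosomes with such peaks. Within 50 kb, a distance chosen after the positions were seen, 7 of the 10 genes had a ZBTB24 peak, against 25.1% of all symbols, and 3 had a DNMT3B peak, against 45.3%. CXCL1 (hg19 chr4:74735109-74737019, plus strand, 4 exons) had the nearest one, at chr4:74732775-74733429, 2007 bp upstream of its start and with a score of 9.27. A second ZBTB24 peak lay 4670 bp upstream of CXCL1, with a score of 12, above 81.6% of the 6173 ZBTB24 peaks. CCL20 (hg19 chr2:228678558-228682280, plus strand, 4 exons) had a ZBTB24 peak at chr2:228682523-228682665, which began 243 bp past its last exon, with a score of 9.62. Of the 6 genes listed with FLAG-ZBTB24, CXCL1, CXCL2, CCL20 and NFKBIA had their lowest listed value there. Their nearest ZBTB24 peak lay at 2.01, 25.7, 4.04 and 42.4 kb in that order. CXCL3 and TNFAIP3 had their lowest listed value in wild type, with the nearest ZBTB24 peak at 21.6 and 35 kb. These orders cross tables that may not have been scaled together, and a link with distance was not tested. CXCL10 and CXCL11 shared their nearest ZBTB24 peak. The 8 genes other than CXCL1 and CCL20 had their nearest ZBTB24 peak between 21.6 and 143 kb from a start.

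CXCL1, CXCL2 and CXCL3 lie in a chemokine cluster on chromosome 4. Between the start of CXCL8 and that of CXCL2 (hg19 chr4:74606223-74964997, 359 kb) stood 6 ZBTB24 peaks with scores of 7.11 to 15.4, or 16.7 per Mb, beside 2.03 per Mb over all chromosomes. No DNMT3B peak lay in that stretch, beside 5.24 per Mb over all chromosomes, and the nearest to CXCL1 was 721 kb away. The stretch was chosen after its peaks were seen. CXCL8, CXCL1, CXCL2 and CXCL3 were its listed genes, and CXCL5, CXCL6, PF4, PF4V1, PPBP and PPBPP2 were not listed in any of the 3 tables. CXCL10 and CXCL11 lie farther along the chromosome, 131 and 143 kb from a ZBTB24 peak.

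**Figure D4:**
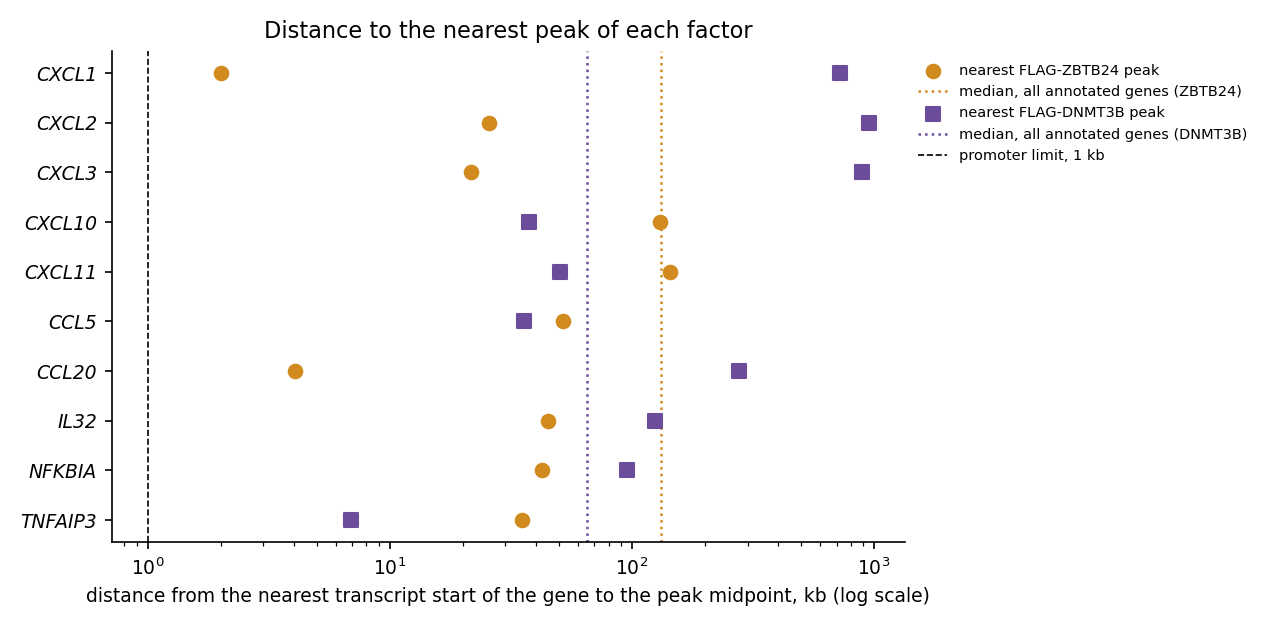
Distance in kb (log scale, x axis) from the nearest transcript start of each of the 10 genes to the midpoint of the nearest FLAG-ZBTB24 peak (orange points) and FLAG-DNMT3B peak (violet squares), with dotted lines at the medians of all annotated genes and a dashed line at the promoter limit. No point lies left of the limit, and CXCL1 at 2.01 kb and CCL20 at 4.04 kb are nearest to a ZBTB24 peak.

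The other genes of the pathway were read from 6 lists with 137 annotated genes, also chosen with earlier results of these data known. Over all 6, the knockout table listed 33 loci as higher, 24.1% of the annotated genes beside 9.09% of all symbols, with 0 past the threshold. Their median log2 fold change of 2.16 was close to the 2.12 over the whole of the authors' deposited table. With FLAG-ZBTB24, 17 loci were listed, 14 of them lower and 3 higher, and 1 fell past the threshold. The lower loci came to 10.2% and the higher to 2.19% of the annotated list genes, beside 3.81% and 3.41% of all symbols, and 0.570% of all listed loci were past the threshold. After the knockdown, 17 were listed, 10 higher and 7 lower, and 3 rose and 1 fell past the threshold. The higher loci came to 7.3% and the lower to 5.11% of the annotated list genes, beside 4.44% and 3.61% of all symbols, and the 4 of 17 past the threshold were near the 22.0% of all loci listed there.

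Among other chemokine ligands, CXCL8, from the cluster of CXCL1, was listed in all 3 tables. It was at 24.8 FPKM in the knockout and 1.93 FPKM in wild type (log2 ratio 3.68, q = 0.469) in the authors' deposited table. With FLAG-ZBTB24 it was at 1.93 FPKM, against 7.92 FPKM with the tag alone (log2 ratio -2.04, q = 0.107), and with shZBTB24 at 5.12 FPKM, against 7.98 FPKM with shNT (log2 ratio -0.64, q = 0.31), in the authors' deposited tables. Of the receptors, CXCR4 was at 0.682 FPKM with FLAG-ZBTB24 and 2.54 FPKM with the tag alone (log2 ratio -1.90, q = 0.409) in the authors' deposited table. CXCR2, the receptor of CXCL1, CXCL2 and CXCL3, and CCR6, that of CCL20, were not listed in any table.

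Of the NF-kB subunits and kinases, the adaptor MYD88 rose to 16.9 FPKM with shZBTB24, against 6.84 FPKM with shNT (log2 ratio 1.30, q = 0.00493), and the kinase IKBKE rose to 1.23 FPKM, against 0.443 FPKM (log2 ratio 1.48, q = 0.0361), in the authors' deposited table. RELB, an NF-kB subunit, was at 30 FPKM in the knockout and 5.95 FPKM in wild type (log2 ratio 2.33, q = 0.418), and at 3.96 FPKM with FLAG-ZBTB24 and 7.07 FPKM with the tag alone (log2 ratio -0.84, q = 0.82), in the authors' deposited tables. NFKB1 was at 6.27 FPKM with FLAG-ZBTB24 and 9.57 FPKM with the tag alone (log2 ratio -0.61, q = 0.967) in the authors' deposited table. With shZBTB24 NFKB1 was higher, at 6.22 FPKM against 4.34 FPKM with shNT (log2 ratio 0.52, q = 0.344, authors' deposited table). NFKB2 was lower with shZBTB24, at 69 FPKM against 102 FPKM (log2 ratio -0.57, q = 0.184, authors' deposited table). In the knockout NFKB2 was at 98.1 FPKM, against 45.9 FPKM in wild type (log2 ratio 1.10, q = 0.621, authors' deposited table). Of the inhibitors and feedback genes, the knockout table listed 6 loci, all higher, led by the locus of NFKBIZ and NXPE3 (log2 ratio 1.93, q = 0.604) and TNFAIP2 (1.87, q = 0.363) in the authors' deposited table. TNFAIP8, an inhibitor of cell death, fell to 7.21 FPKM with shZBTB24, against 14.9 FPKM with shNT (log2 ratio -1.05, q = 0.00823, authors' deposited table).

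Of the 40 other NF-kB target genes, the longest list, 15 were listed in the knockout, 8 with FLAG-ZBTB24 and 8 with shZBTB24. With FLAG-ZBTB24, 6 were lower and 2 higher, or 15% and 5% of the list, beside 3.81% and 3.41% of all symbols. With shZBTB24, 7 were higher and 1 lower, or 17.5% and 2.5%, beside 4.44% and 3.61% of all symbols. CCL20 and CXCL8 were lower with shZBTB24. The knockout share was 37.5%, beside 40% of the inhibitors and feedback genes and 9.09% of all symbols. BIRC3, an inhibitor of cell death, rose to 8.38 FPKM with shZBTB24, against 3.76 FPKM with shNT (log2 ratio 1.16, q = 0.0113), in the authors' deposited table. It was at 1.14 FPKM with FLAG-ZBTB24 and 3.75 FPKM with the tag alone (log2 ratio -1.71, q = 0.169) in the authors' deposited table. JUNB, a subunit of AP-1, fell to 28.3 FPKM with FLAG-ZBTB24, against 89.8 FPKM with the tag alone (log2 ratio -1.67, q = 0.0498), in the authors' deposited table. ICAM1, a leukocyte adhesion molecule, was at 60.9 FPKM in the knockout and 4.70 FPKM in wild type (log2 ratio 3.70, q = 0.342) in the authors' deposited table. Of the upstream receptors, the locus of TNFRSF1B, a receptor of tumour necrosis factor, and MIR7846 was at 6.96 FPKM in the knockout and 0.065 FPKM in wild type (log2 ratio 6.74, q = 0.553) in the authors' deposited table. Unlike most list genes, that locus was also higher with FLAG-ZBTB24, at 1.16 FPKM against 0.291 FPKM with the tag alone (log2 ratio 1.99, q = 0.686, authors' deposited table).

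**Figure D5:**
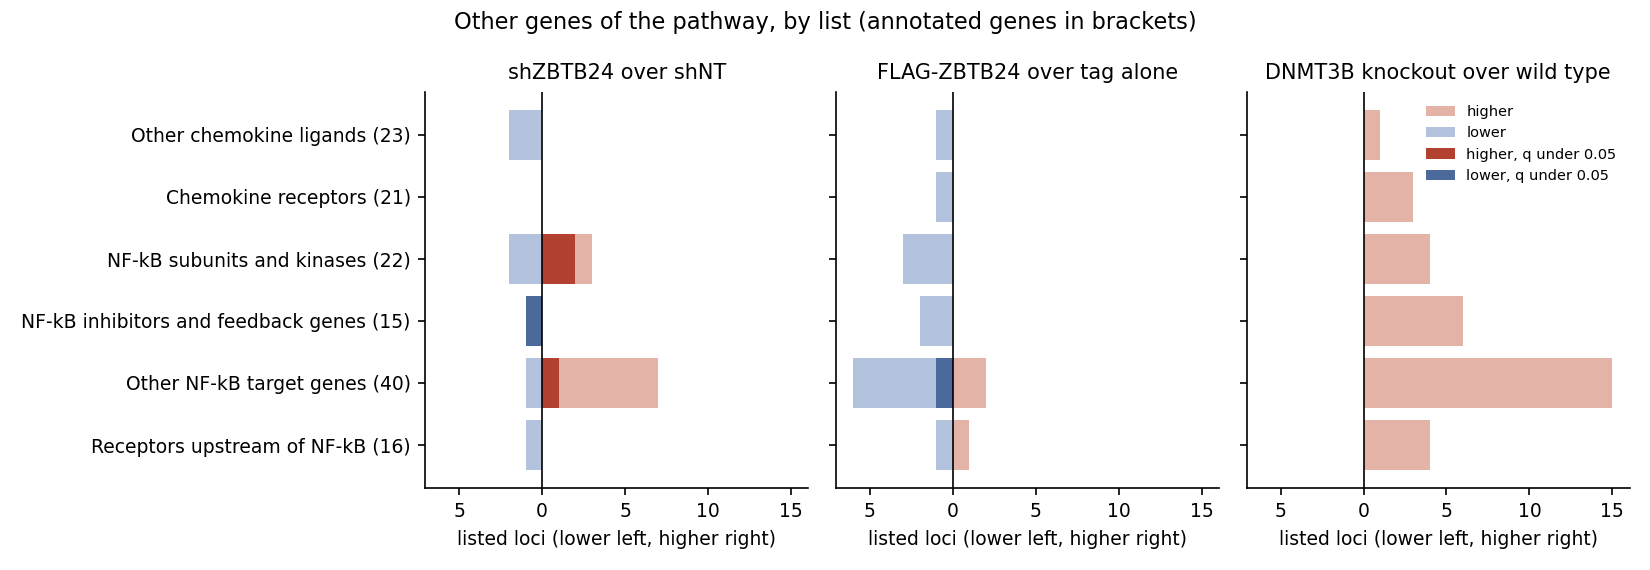
Number of listed loci (x axis) of 6 pathway lists in the authors' deposited tables, with lower loci to the left of 0 and higher loci to the right, and those with q under 0.05 in dark colours. The knockout panel holds higher loci only, because its label does, and 0 of its bars are dark.

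Likeness of pattern was measured as the distance between log2 fold changes over the tables in which a gene is listed. The 3 nearest loci are given for each gene. Over the 406 loci listed both with FLAG-ZBTB24 and in the knockout, CXCL1 was nearest to S100A7 (distance 0.18), CXCL8 (0.34) and PELI2 (0.53). CXCL2 was nearest to LNP1 (0.14), TM4SF18 (0.22) and ELF5 (0.22), and CXCL3 to IRF9 (0.04), IFI35 (0.06) and ICAM1 (0.09). NFKBIA was nearest to ACVRL1 (0.10), RELB (0.12) and GPR158 (0.24), and TNFAIP3 to PNMA2 (0.13), SLC5A5 (0.26) and ZFP37 (0.31). For CCL20, over the 104 loci listed in all 3 tables, the nearest were GS1-259H13.2 (1.86), LPIN1 (1.92) and HKDC1 (1.99). Those distances span 3 log2 ratios and not 2, and hold the deposited -3.05 of CCL20 with FLAG-ZBTB24. They cannot be set against the others.

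Markers of leukocytes, which also express these chemokines, were checked in the same tables. In the knockout, 3 of 10 were listed, CD4 at 2.74 FPKM against 0.0862 FPKM in wild type, CD68 at 39.3 FPKM against 17.5 FPKM, and CD8A at 0.829 FPKM against 0.38 FPKM in the table the authors deposited, and 0 of the 3 passed the threshold. These were 30% of that list, beside 9.09% of all symbols. CD68 was also listed with FLAG-ZBTB24, at 3.41 FPKM against 18.0 FPKM with the tag alone in the authors' deposited table (q = 0.967). PTPRC, CD3E and the other leukocyte markers were not listed. Of 10 colon epithelial markers, CDH1 fell to 23.2 FPKM with shZBTB24, against 46.3 FPKM with shNT (q = 0.00493), and CDX2 rose to 18.8 FPKM, against 6.90 FPKM (q = 0.00493), in the authors' deposited table. KRT20 was at 1.49 FPKM in the knockout and 0.558 FPKM in wild type (q = 0.965), and at 1.24 FPKM with FLAG-ZBTB24 and 0.455 FPKM with the tag alone (q = 0.787), in the authors' deposited tables. CDH1 was at 42.5 FPKM with FLAG-ZBTB24 and 29.2 FPKM with the tag alone (q = 0.967) in the authors' deposited table. With shZBTB24, 10% of the colon list was higher and 10% lower, beside 4.44% and 3.61% of all symbols. With FLAG-ZBTB24, 20% was higher, beside 3.41% of all symbols, and in the knockout 10%, beside 9.09%. Of 10 fibroblast markers, PDGFRB alone was listed, at 0.964 FPKM in the knockout and 0.0718 FPKM in wild type (q = 0.56) in the authors' deposited table. That is 10% of the fibroblast list, close to the 9.09% of all symbols. The part of these markers in the values of the 10 genes was not tested.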

How the data were processed

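The members and the gene lists were chosen with earlier results of these data known. HISAT2, StringTie, Cufflinks and MACS2 on hg19 are named in the submitters' processing notes; the sources used here give no versions. The authors deposited 1 pooled FPKM value per group, the log2 fold change (tested over control), and a p-value and q-value per locus; the test statistic is a score, deposited by the authors and not used. Peak scores were deposited as 1 score per merged peak. No table holds values per library, so no count model, standard deviation or depth could be given, and the authors' q under 0.05 served as the threshold; the FLAG-ZBTB24 libraries came from separate clonal lines by their names, while nothing says that the hairpin libraries of 1 group came from separate cultures, so those p-values may measure technical spread only. Gene columns were split at commas. Peaks were assigned by midpoint, within 1000 bp of a transcript start or inside a transcript beyond it; the assignment was tested on simulated data. Named genes were the 10 members, list genes past the threshold and at most 5 others per list and table. Columns of values without a group numbered 0. Promoters were aligned globally with Biopython 1.88 (match 1, mismatch -1, gap opening -3, gap extension -1); tables were handled with Python 3.11.15 and pandas 2.3.3. Alternatives changed the q threshold, the FPKM filter, the pseudocount, the promoter window and the peak score.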

Additional observations from a re-analysis of the deposited data

How the results depend on the processing

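No paired analysis was possible because the deposited tables hold 1 value per group, and for the same reason no replicate could be left out. With a q under 0.1, or q under 0.05 with at least a 2-fold change, 0 genes of the 10 passed in any of the 3 comparisons, as before. At an unadjusted p under 0.05 the counts were 2 in the knockout, 2 with FLAG-ZBTB24 and 1 with shZBTB24. Counts of listed genes were the same with a minimum of 1 FPKM, with loci that name 1 gene, and with the rows labelled DNMT3BKOshZB. The median log2 fold change with 0.1 and 1 FPKM added was 2.96 and 2.41 in the knockout and -1.01 and -0.72 with FLAG-ZBTB24. For CCL20 with shZBTB24 the log2 fold change was -1.72 and -0.90. Adding the same value to both groups cannot turn a fold change round, so the 30 values of single genes are no check of direction. A promoter of 5000 bp held a ZBTB24 peak in 2 genes, CXCL1 and CCL20. The share of all symbols was not counted at 5000 bp. Of the symbols on chromosomes with such peaks, 6.41% had one nearer than the 4.04 kb of CCL20. The 50 kb distance, added after the data were seen, held a ZBTB24 peak in 7 genes, against 25.1% of all symbols. It held a DNMT3B peak in 3, against 45.3%. With peaks at or above the median score, 0 genes had a DNMT3B peak in the body. The looser kB pattern GGG, any 5 bases and CC, also added later, was in 10 of the 10 promoters and in 58.7% of all. The unknown depth limits every low value.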

Other observations

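LCN2, an antibacterial protein induced through NF-kB, was at 5.83 FPKM with FLAG-ZBTB24 and 15.4 FPKM with the tag alone in the authors' deposited table (log2 ratio -1.40, q = 0.441). CCL22, a chemokine that attracts regulatory T cells, was at 0.32 FPKM with shZBTB24 and 0.921 FPKM with shNT in the authors' deposited table (log2 ratio -1.52, q = 0.282). MMP9, a protease of the extracellular matrix, was at 3.57 FPKM in the knockout and 0.0789 FPKM in wild type in the authors' deposited table (log2 ratio 5.50). None of the 3 passed the threshold.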
